A study of Mus musculus with 8 samples.

Results

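The IGF binding proteins, the pappalysins that cut them and the stanniocalcins that block the pappalysins were followed as a set of 10 genes among 49585 gene rows in whole pituitary of old and young mice. The members are Igfbp2, Igfbp3, Igfbp4, Igfbp5, Igfbp6, Igfbp7, Pappa, Pappa2, Stc1 and Stc2. They were picked by gene family, and Pappa2 was taken in because it is among the strongest falls with age in these libraries, so its difference is given as a description with no test. All 10 had a mean of at least 0.1 FPKM (fragments per kilobase of exon, scaled to the fragment total of the library) and entered the fit across all genes. Messenger RNA was sequenced from 4 libraries of old pituitary (18 to 24 months) and 4 of young pituitary (2 to 3 months). All mice were wild-type C57BL/6, kept under specific pathogen free conditions on regular chow and, by the study's methods, perfused to wash out blood before dissection. Blood transcripts were still found: 5 such genes summed to 15.9 to 124 FPKM in old libraries and 13 to 110 FPKM in young ones. The labels give neither the sex of these mice nor whether each library is a separate mouse, so the spread between libraries may be in part technical. In whole tissue, fewer cells of a type and less RNA per cell cannot be told apart.

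Insulin-like growth factors circulate and wait in tissue bound to IGF binding proteins, which keep them from the type 1 IGF receptor until the binding protein is cut. Pappalysin 1, encoded by Pappa, is a secreted metalloproteinase known for cutting IGFBP4, and pappalysin 2, encoded by Pappa2, is known for cutting IGFBP3 and IGFBP5. The stanniocalcins STC1 and STC2 inhibit both enzymes. In the pituitary, IGF1 acts on somatotrophs, the growth hormone cells, as part of the negative feedback on growth hormone.

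Pappa2 averaged 4.68 ± 1.20 FPKM in old pituitary, against 17.3 ± 1.89 FPKM in young pituitary (SD, n = 4 each). Its known substrates gave other values: Igfbp3 averaged 27.9 ± 5.27 FPKM in old libraries and 17.3 ± 6.60 FPKM in young ones, and Igfbp5 averaged 111 ± 20 FPKM in old libraries and 104 ± 17.5 FPKM in young ones. None of the 9 members other than Pappa2 passed an adjusted p of 0.05 in limma, in either direction. Among the ligands, Igf2 rose by 1.41 on the log2 scale.

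The site that makes the pappalysins proteinases is shown first, since Pappa2 and its paralog Pappa gave such different values. It is the zinc-binding motif, read from the GENCODE M21 coding sequence of each gene. Capitals mark the codons of the glutamate, the glycine and the 3 histidines that define the motif.
Pappa: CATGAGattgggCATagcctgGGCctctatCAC
Pappa2: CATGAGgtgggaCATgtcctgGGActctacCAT
The Pappa motif lies at chr4:65180920-65180952 on the plus strand and the Pappa2 motif at chr1:158857336-158857368 on the minus strand (GRCm38), each within 1 coding exon. Over the motif 25 of 33 bases are the same in both genes. The whole coding sequences encode 1624 residues in Pappa and 1789 in Pappa2, so the enzymes are of like size.

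The IGF binding proteins share a cysteine-rich amino-terminal domain. Its signature, in the form searched, was found in Igfbp2, Igfbp3, Igfbp4 and Igfbp5 and not in Igfbp6 or Igfbp7. The signature is not read here as a mark of the proteins that pappalysins cut. Capitals mark the codons of the glycine and cysteine residues of the signature. The search also allowed serine in place of the glycine that lies between cysteines.
Igfbp2: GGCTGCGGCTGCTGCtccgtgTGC
Igfbp3: GGCTGCGGCTGCTGCctgactTGC
Igfbp4: GGCTGCGGTTGTTGCgccactTGC
Igfbp5: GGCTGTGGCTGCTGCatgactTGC
These stretches lie at chr1:72824778-72824801 on the plus strand, chr11:7213566-7213589 on the minus strand, chr11:99041650-99041673 on the plus strand and chr1:72873966-72873989 on the minus strand, in the order shown. Igfbp3 and Igfbp5 are the most alike, with 22 of 24 bases the same, and Igfbp2 and Igfbp5 the least alike, with 17 of 24. Igfbp6 encodes 16 cysteines over the whole protein and the other binding proteins 18 to 20. Igfbp2 and Igfbp5 are neighbours on chromosome 1, their gene spans 5.46 kb apart and on opposite strands.

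The RefSeq promoter window of Pappa2 is shown because no other member differed as much with age. It spans chr1:158958126-158958425 on the minus strand (GRCm38.p6) and lies inside the longer span that GENCODE M21 gives the gene, chr1:158711727-158980490. Capitals mark the single match to TATNCAT, the core of the sites bound by POU1F1, the transcription factor of the somatotroph, lactotroph and thyrotroph lineage.
Pappa2 promoter: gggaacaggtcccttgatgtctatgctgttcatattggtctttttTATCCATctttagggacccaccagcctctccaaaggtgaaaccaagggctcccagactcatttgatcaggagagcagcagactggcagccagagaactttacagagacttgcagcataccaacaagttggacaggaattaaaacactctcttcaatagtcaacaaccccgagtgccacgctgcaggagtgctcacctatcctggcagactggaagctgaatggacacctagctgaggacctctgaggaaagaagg
The match lies at position -205, counted from the annotated start. TATNCAT was searched on both strands and occurs in 8.84% of 32851 mouse promoter windows of this length, and in none of the windows of the other 7 members with an entry. TATAAA, searched likewise, occurs at -28 in Igfbp4 and at -148 in Igfbp6, and in 13.6% of all windows. The Pappa2 window is 49.7% G and C and holds 2 CpG dinucleotides. Pou1f1 itself averaged 55.0 ± 3.86 FPKM in old libraries and 57.1 ± 11.7 FPKM in young ones (limma adjusted p = 0.93). A match to these letters is a description and not a site of binding.

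Fragment totals, worked back from the FPKM steps, were 16098530 to 19272104 in old libraries and 15042321 to 20429604 in young ones. Hormone transcripts took 9.05 to 11.56% of the fragments in old libraries and 11.99 to 14.13% in young ones. Genes of the ribosomal RNA repeat took 33.77 to 38.13% in old libraries and 33.84 to 40.28% in young ones. The median log2 difference of all genes tested, old minus young, was 0.15, and it was 0.02 when the library size was counted without hormone and ribosomal repeat genes and 0.01 with median-of-ratios scaling. Differences of the members are therefore to be read against 0.15, not 0. Over the list of 6 posterior lobe pituicyte genes, the summed level was 9.13 FPKM in old replicate 4, 3.20 to 4.27 FPKM in the other old libraries and 2.25 to 3.45 FPKM in young ones. Old replicate 4 stood apart in 3 of the 6: Rax was at 0.48 FPKM there and at most 0.0349 FPKM elsewhere, Nkx2-1 at 0.422 and at most 0.019 FPKM, and Scn7a at 3.00 and at most 0.107 FPKM. Col25a1 was highest there as well, at 2.91 FPKM, but it was above the young libraries in all 4 old ones, the young libraries being at 0.414 to 0.605 FPKM. Gfap and Vim did not single that library out.

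**Figure D1:**
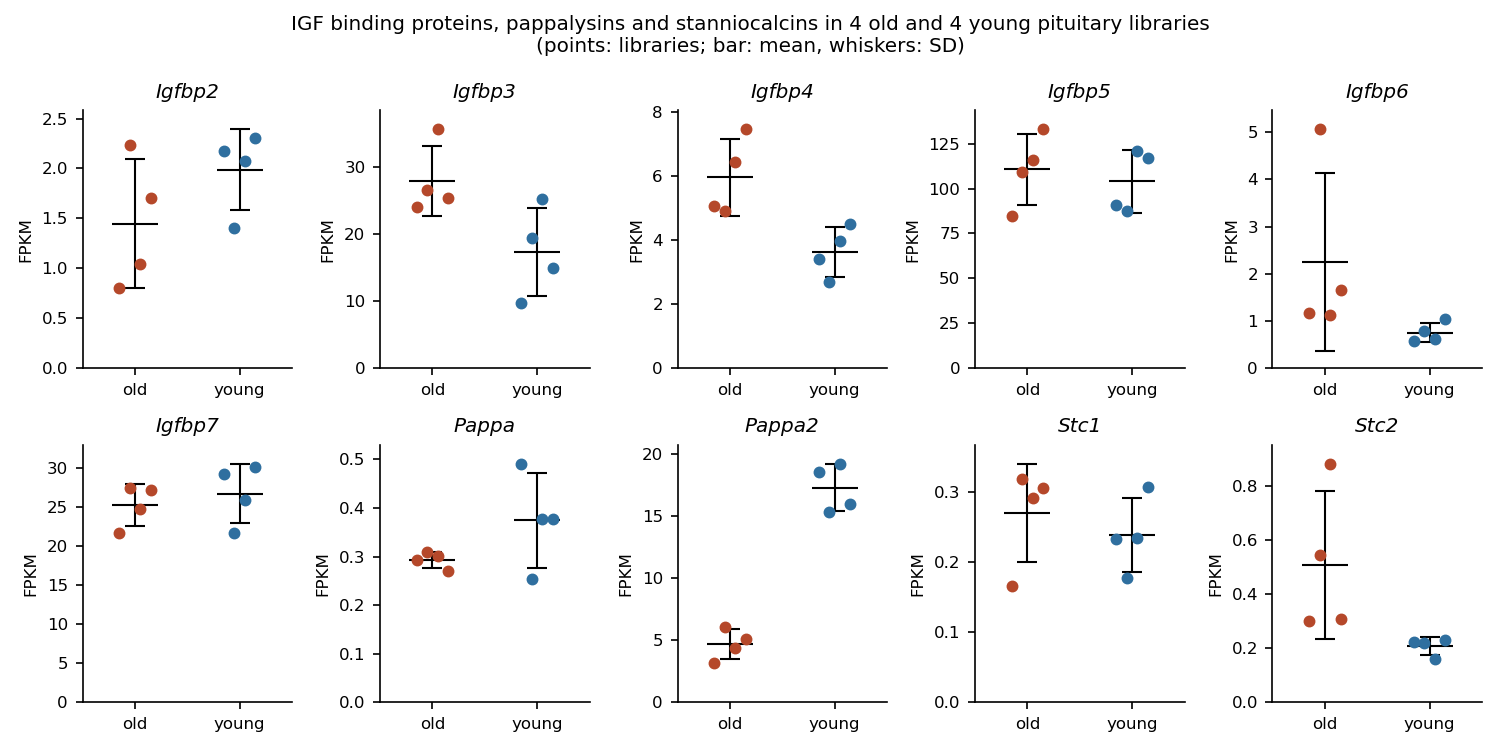
FPKM of the 10 members (one panel each, linear axis from 0) in 4 old libraries on the left and 4 young libraries on the right; points are libraries, the bar is the mean and the whiskers the SD. The Pappa2 points form separate groups, at 3.18 to 6.03 FPKM in old libraries and 15.3 to 19.2 FPKM in young ones, while 6 of the 10 panels show overlapping ages.

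Igfbp5, the most conserved of the binding proteins, was the highest member. It stood at 84.7, 109, 116 and 133 FPKM in the old libraries, against 90.7, 87.4, 121 and 117 FPKM in the young ones. The ages overlapped over nearly their whole range, and the log2 difference was 0.08 ± 0.18 (SE; limma adjusted p = 0.82). The sign of that value turned negative under 3 of the rescaled fits, as it did without old replicate 4, so no direction is given for Igfbp5. With 47642 fragments summed over old libraries and 45007 over young ones, counting error was not what limited this comparison.

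Igfbp3, the main carrier of IGFs in blood, stood at 24.0, 26.5, 35.6 and 25.4 FPKM in the old libraries, against 9.64, 19.4, 25.2 and 15 FPKM in the young ones. The lowest old library lay below the highest young one, so the groups overlapped by that pair only. The log2 difference was 0.75 ± 0.29 (limma unadjusted p = 0.034, adjusted p = 0.19). Young libraries varied more among themselves than old ones, with coefficients of variation of 18.9% in old libraries and 38.2% in young ones.

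Igfbp7, a more distant relative that binds IGFs weakly and is known from blood vessel walls, stood at 21.7, 27.5, 24.8 and 27.2 FPKM in the old libraries, against 29.3, 21.7, 25.9 and 30.1 FPKM in the young ones. Both ages had about the same lowest value. Its log2 difference was -0.08 ± 0.14 (limma adjusted p = 0.78). The summed level of 8 endothelial marker genes likewise overlapped, at 74.7 to 101 FPKM in old libraries and 69.9 to 97.8 FPKM in young ones. An 85-base stretch of Igfbp7 exon overlaps Polr2b on the opposite strand.

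Igfbp4 encodes a known substrate of pappalysin 1. Igfbp4 stood at 5.05, 4.91, 6.43 and 7.46 FPKM in the old libraries, against 3.42, 2.68, 3.96 and 4.51 FPKM in the young ones. Every old library was above every young one, although the nearest pair differed by 1.09-fold only. The log2 difference of 0.70 ± 0.20 did not pass over all genes (limma unadjusted p = 0.0088, adjusted p = 0.11). It did pass when voom with TMM factors was run on the recovered fragments, with a log2 difference of 0.55 and an adjusted p of 0.038, against a range of 0.038 to 0.23 over all 17 alternatives.

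Igfbp6, which prefers IGF2 to IGF1, stood at 1.17, 5.06, 1.12 and 1.65 FPKM in the old libraries, against 0.575, 0.777, 0.616 and 1.03 FPKM in the young ones. The 4 old libraries were again above the 4 young ones, but old replicate 2 stood far from the other 3. The log2 difference was 1.22 ± 0.46 (limma unadjusted p = 0.031, adjusted p = 0.18). Without old replicate 2 it was 0.74 ± 0.23 (adjusted p = 0.18). Igfbp6 rests on few reads, 181 fragments over the old libraries and 59 over the young ones.

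Igfbp2, known from embryonic and glial tissue, stood at 0.807, 2.23, 1.04 and 1.70 FPKM in the old libraries, against 2.17, 1.40, 2.07 and 2.31 FPKM in the young ones. Old libraries reached from below the young range to near its top, and the log2 difference was -0.51 ± 0.31 (limma adjusted p = 0.38).

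Of the 9 members other than Pappa2, 0 were called higher in old pituitary and 0 lower, against 1.86% and 0.472% of the 23498 genes tested. At an unadjusted p under 0.05, 4 of the 9 were higher (Igfbp3, Igfbp4, Igfbp6 and Stc2) and 0 lower, against 18.0% and 3.79% of all genes. By the order of the libraries, 3 of the 9 had every old library above every young one (Igfbp4, Igfbp6 and Stc2) and 0 had every old library below, against 13.4% and 2.06% of all genes. With voom, 1 of the 9 was called higher (Igfbp4), against 2.62% of genes. The median log2 difference of the 9 was 0.12, next to 0.15 over all genes tested. Over all genes, 436 were called higher and 111 lower. That split moved to 206 higher and 217 lower with median-of-ratios scaling and to 212 higher and 189 lower without hormone and ribosomal repeat genes in the library size, while no further member passed.

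Pappa2 stood at 3.18, 6.03, 4.39 and 5.10 FPKM in the old libraries, against 18.5, 15.3, 19.2 and 16 FPKM in the young ones. The groups lay far apart: the lowest young library was 2.54 times the highest old one. As a description, the log2 difference was -1.89 ± 0.20, and the mean was 3.70 times higher in young than in old pituitary. It rested on 3464 fragments summed over old libraries and 12714 over young ones, the read support being large at both ages. Leaving out each library in turn gave values between -2.03 and -1.73, and the other settings between -2.06 and -1.71. In the order of log2 differences Pappa2 was number 78 from the largest fall among 23498 genes, and number 28 among the 14588 genes that average 1 FPKM or more. Its neighbours in that second order were Pcdh10 at -1.90 and Snord59a at -1.88.

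The nearest genes on each side of Pappa2 on chromosome 1, among tested protein-coding genes matched by name, gave other values. Astn1, 19.9 kb away, had a log2 difference of -0.03 ± 0.17 (limma adjusted p = 0.94), and Tnr, 543.3 kb away, one of -0.11 ± 0.12 (adjusted p = 0.64). A non-coding gene on the same strand, 1600012P17Rik, shares 310 exon bases with Pappa2 and reached at most 0.0221 FPKM in old libraries and 0.0755 FPKM in young ones.

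Cell type markers were set beside the Pappa2 difference. Summed over 10 hormone cell genes, the level was 101386 to 129800 FPKM in old libraries and 135883 to 160090 FPKM in young ones. That sum is mostly Prl, averaging 83140 FPKM in old libraries and 82116 FPKM in young ones, and Gh, so its difference follows Gh. Gh and Lhb were called lower. Without passing, Prl, Tshb, Cga, Fshb and Pomc averaged higher in old libraries, and Pou1f1, Tbx19 and Nr5a1 lower. Summed over 10 fibroblast and pericyte genes, the level was 72.7 to 101 FPKM in old libraries and 88.5 to 99.6 FPKM in young ones. Col1a2, the largest part of that sum, averaged 52.9 FPKM in old libraries and 54.4 FPKM in young ones. Col1a1 and Col3a1 were called lower. Without passing, Rgs5 and Cspg4 averaged higher in old libraries, and Dcn, Lum, Pdgfra, Pdgfrb and Acta2 lower. The 6 stem and folliculostellate cell genes summed to 9.88 to 12.1 FPKM in old libraries and 13.3 to 16.7 FPKM in young ones. The 8 macrophage genes summed to 72.5 to 98.4 FPKM in old libraries and 33.7 to 58.0 FPKM in young ones, with Lyz2 and C1qb called higher. Over all genes tested, 1.86% were called higher and 0.472% lower. The part of these cell types in the Pappa2 difference was not tested.

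Pappa, the paralog of Pappa2, stood at 0.293, 0.309, 0.301 and 0.270 FPKM in the old libraries, against 0.491, 0.253, 0.377 and 0.377 FPKM in the young ones. Old libraries were tightly grouped, with a coefficient of variation of 5.81%, and lay within the range of the young ones, whose coefficient was 25.9%. The log2 difference was -0.25 ± 0.16 (limma adjusted p = 0.39), from 231 fragments over old libraries and 296 over young ones.

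The stanniocalcins were low at both ages. Stc2 stood at 0.3, 0.544, 0.882 and 0.309 FPKM in the old libraries, against 0.225, 0.218, 0.161 and 0.232 FPKM in the young ones. Every old library was above every young one, the nearest pair 1.29-fold apart. The old libraries spread widely among themselves, and the log2 difference of 0.88 ± 0.29 missed the threshold (limma unadjusted p = 0.017, adjusted p = 0.14). It rested on 193 fragments over old libraries and 76 over young ones, and was 0.62 ± 0.20 without old replicate 3.

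Stc1 stood at 0.166, 0.318, 0.291 and 0.305 FPKM in the old libraries, against 0.233, 0.178, 0.235 and 0.307 FPKM in the young ones. The ages overlapped, and the log2 difference was 0.12 ± 0.18 (limma adjusted p = 0.73). These values rest on about 73 fragments over old libraries and 64 over young ones. The GENCODE M21 exon length of Stc1 did not return whole fragments, so its level is less certain than those of the other members. An antisense gene, Gm41192, overlaps 229 of its exon bases but has no row of that name in the deposited lists.

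The order of the levels shifted with Pappa2. In old pituitary its range of 3.18 to 6.03 FPKM overlapped that of Igfbp4, at 4.91 to 7.46 FPKM. In young pituitary its range of 15.3 to 19.2 FPKM overlapped that of Igfbp3, at 9.64 to 25.2 FPKM, and lay wholly above that of Igfbp4. At both ages Igfbp5 was first by a wide margin. Igfbp7 and Igfbp3 followed with overlapping ranges. Igfbp2 and Igfbp6 overlapped in old pituitary but not in young pituitary, where Igfbp2 was above. Pappa, Stc1 and Stc2 closed the order, and 3 of the 10 members were under 1 FPKM over all 8 libraries.

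Added up, the 6 binding proteins came to 173 ± 25.6 FPKM in old libraries and 154 ± 23.4 FPKM in young ones, with overlapping ranges of 137 to 196 FPKM and 133 to 179 FPKM. Igfbp5 made up 63.6 ± 2.83% of that sum in old libraries and 67.2 ± 1.41% in young ones. The share of Igfbp3 was 16.2 ± 2.78% in old libraries and 11.1 ± 3.73% in young ones, and that of Igfbp4 was 3.44 ± 0.440% in old libraries and 2.35 ± 0.291% in young ones. Only for Igfbp4, of these 3 shares, did the old and young ranges not overlap, at 2.81 to 3.80% in old libraries and 2.01 to 2.65% in young ones. These shares are ratios within a library and do not depend on its scaling.

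Ratios to the proteinase moved with Pappa2 and are likewise descriptions. Pappa2 was 16 ± 4.03 times Pappa in old libraries and 48.0 ± 10 times Pappa in young ones. It was 0.171 ± 0.0513 times its substrate Igfbp3 in old libraries and 1.14 ± 0.541 times in young ones, and 0.0423 ± 0.00881 times Igfbp5 in old libraries and 0.169 ± 0.0283 times in young ones. The summed stanniocalcins came to 16.9 ± 6.60% of the Pappa2 level in old libraries and 2.62 ± 0.548% in young ones. In each of these 4 ratios the ages did not overlap. Igfbp4 over Pappa, which does not involve Pappa2, was 15.9 to 27.7 in old libraries and 6.98 to 12.0 in young ones. Neither Igfbp4 nor Pappa passed by itself in limma. The ages overlapped in Igfbp3 over Igfbp7 and in Stc2 over Stc1, which do not involve Pappa2 either.

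**Figure D2:**
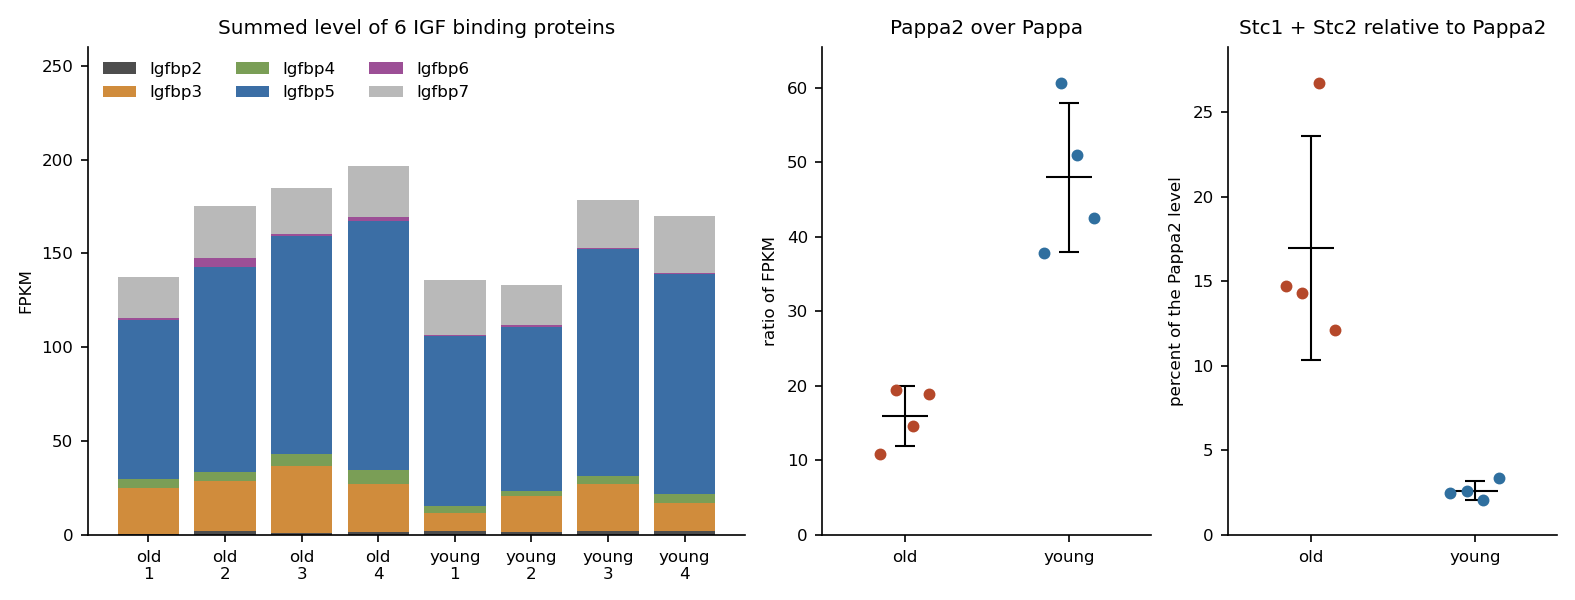
Left, FPKM of the 6 binding proteins stacked for each library, old libraries first; middle, Pappa2 over Pappa as a ratio of FPKM; right, the sum of Stc1 and Stc2 as a percent of the Pappa2 level (points are libraries, bar the mean, whiskers the SD). Igfbp5 fills most of every column, and the Pappa2 over Pappa ratio is at most 19.5 in old libraries and at least 37.8 in young ones.

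Beyond the members, 69 other genes of the IGF and growth hormone pathway were counted in 5 lists, and 57 of them could be tested. Of these, 2 rose in old pituitary and 3 fell, against 1.86% higher and 0.472% lower over all genes. With voom 2 rose and 10 fell, against 2.62% and 2.97% over all genes. The median log2 difference of the 57 was -0.04, next to 0.15 over all genes tested. In the leave-one-out fits the calls of Igf2 and Gh held in 8 of 8, that of Wisp1 in 4 and those of Htra3 and Ghsr in 2 each. Leaving out old replicate 1, old replicate 3 or young replicate 3 each ended 3 of the 5 calls, those of Wisp1, Htra3 and Ghsr. Leaving out old replicate 2 or young replicate 1 ended those of Htra3 and Ghsr, young replicate 4 those of Wisp1 and Ghsr, and old replicate 4 that of Htra3.

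Igf2, the fetal IGF and a ligand of the classical binding proteins, stood at 1.54, 1.35, 1.79 and 1.25 FPKM in the old libraries, against 0.468, 0.453, 0.419 and 0.640 FPKM in the young ones. The lowest old library was well above the highest young one. Igf2 rose by 1.41 ± 0.16 on the log2 scale (limma adjusted p = 0.011; 0.019 to 0.042 with 1 library left out). It rested on 607 fragments over old libraries and 201 over young ones. In GENCODE M21 a predicted protein-coding gene, Gm49394, shares 3596 exon bases with Igf2 on the same strand, so reads in those bases cannot be told apart by position. The deposited lists hold no row named Gm49394.

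Igf1, the growth hormone dependent IGF, stood at 0.339, 0.306, 0.424 and 0.312 FPKM in the old libraries, against 0.716, 0.302, 0.613 and 0.569 FPKM in the young ones, a log2 difference of -0.51 ± 0.22 that did not pass (limma adjusted p = 0.24). Of the receptors, Igf1r averaged 15.7 ± 1.52 FPKM in old libraries and 14.2 ± 1.72 FPKM in young ones. Insr averaged 6.02 ± 0.620 FPKM in old libraries and 5.25 ± 0.445 FPKM in young ones, and Igf2r, which takes IGF2 up for breakdown, 5.72 ± 0.248 FPKM in old libraries and 5.89 ± 0.484 FPKM in young ones. None of the 3 receptors passed (limma adjusted p = 0.50, 0.35 and 0.83, in that order). Igf2 was thus the 1 gene of 5 tested in this list that passed.

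Downstream of the receptors, 0 of 23 signalling genes rose and 0 fell. At an unadjusted p under 0.05, limma had 3 of the 23 higher and 1 lower, near the 18.0% and 3.79% of all genes. The one nearest the threshold was Grb10, an adaptor that dampens insulin and IGF receptor signalling, at 1.86 to 3.09 FPKM in old libraries and 3.81 to 5.16 FPKM in young ones. Its log2 difference of -0.85 ± 0.18 had a limma adjusted p of 0.055, which was 0.0011 with voom and ranged from 0.0011 to 0.19 over 17 alternatives. In limma Grb10 also passed with median-of-ratios scaling (adjusted p = 0.034) and without hormone and ribosomal repeat genes in the library size (0.04). The same held with a pseudocount of 1 (0.032), among genes averaging 1 FPKM or more (0.028) and with a mean-variance trend (0.033). The forkhead factors Foxo3 and Foxo4 and the adaptor Grb2 had log2 differences of 0.25 ± 0.09, 0.27 ± 0.10 and 0.29 ± 0.10, with adjusted p of 0.16, 0.16 and 0.17. Akt1, the kinase with the highest level in the list, averaged 18.7 ± 1.52 FPKM in old libraries and 17.9 ± 1.40 FPKM in young ones.

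Among 11 tested relatives that carry the IGF binding protein domain, 1 rose and 1 fell, against 1.86% and 0.472% of all genes. Htra3, a secreted serine protease, was at 0.434 to 0.573 FPKM in old libraries and 0.170 to 0.296 FPKM in young ones, and rose by 0.92 ± 0.15 on the log2 scale (limma adjusted p = 0.029; 0.036 to 0.087 with 1 library left out). Wisp1, a matricellular protein of connective tissue, was at 0.310 to 0.520 FPKM in old libraries and 0.896 to 1.62 FPKM in young ones, and fell by 1.41 ± 0.20 on that scale (adjusted p = 0.023; 0.034 to 0.062). Its relative Cyr61 stood at 5.91 to 18.7 FPKM in old libraries and 21.3 to 24.8 FPKM in young ones without passing (adjusted p = 0.099). Cyr61 passed with voom (adjusted p = 0.0039) and without old replicate 4 (log2 difference -1.45, adjusted p = 0.033), within a range of 0.0039 to 0.21 over 17 alternatives. Kazald1 averaged 13.6 ± 1.19 FPKM in old libraries and 10.8 ± 1.36 FPKM in young ones (adjusted p = 0.18).

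Other proteases reported to cut binding proteins gave no call, with 0 of 11 higher and 0 lower in limma and 2 each way at an unadjusted p under 0.05, against 18.0% higher and 3.79% lower over all genes. Mmp2, a matrix gelatinase, was the nearest, at 0.184 to 0.543 FPKM in old libraries and 0.572 to 0.871 FPKM in young ones (adjusted p = 0.12). Plat, tissue plasminogen activator, averaged 2.37 ± 0.263 FPKM in old libraries and 4.32 ± 1.55 FPKM in young ones (adjusted p = 0.14), and Plau, its urokinase counterpart, 0.497 ± 0.143 FPKM in old libraries and 0.292 ± 0.108 FPKM in young ones (adjusted p = 0.22). Ctsd, the lysosomal cathepsin D and by far the highest of the list, averaged 89.6 ± 2.31 FPKM in old libraries and 71.9 ± 10 FPKM in young ones (adjusted p = 0.16). Adam9, a membrane metalloproteinase, averaged 4.28 ± 0.410 FPKM in old libraries and 4.72 ± 0.950 FPKM in young ones.

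In the growth hormone list, 2 of 8 tested genes fell and 0 rose, against 0.472% and 1.86% of all genes, and 4 of the 8 had every old library below every young one, against 2.06%. Gh, growth hormone itself, stood at 23999, 27936, 20301 and 25072 FPKM in the old libraries, against 63515, 58172, 57498 and 70106 FPKM in the young ones, and fell by 1.36 ± 0.13 on the log2 scale (limma adjusted p = 0.0076). Ghsr, the ghrelin receptor, was at 0.0488 to 0.206 FPKM in old libraries and 0.345 to 0.928 FPKM in young ones, and fell by 1.78 ± 0.31 (adjusted p = 0.036; 0.028 to 0.097 with 1 library left out) on 37 fragments over old libraries and 211 over young ones. The somatostatin receptor Sstr5, at 0.682 to 1.27 FPKM in old libraries and 1.48 to 3.06 FPKM in young ones, and the releasing hormone receptor Ghrhr, at 14.1 to 19.7 FPKM in old libraries and 21.1 to 28.3 FPKM in young ones, did not overlap between ages but did not pass (adjusted p = 0.07 and 0.16). Sstr5 passed with voom (adjusted p = 0.006), within a range of 0.006 to 0.21 over 17 alternatives. In limma it also passed with a pseudocount of 1 (adjusted p = 0.047) and among genes averaging 1 FPKM or more (0.039). The same held with a mean-variance trend (0.048) and without young replicate 2 (0.042).

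**Figure D3:**
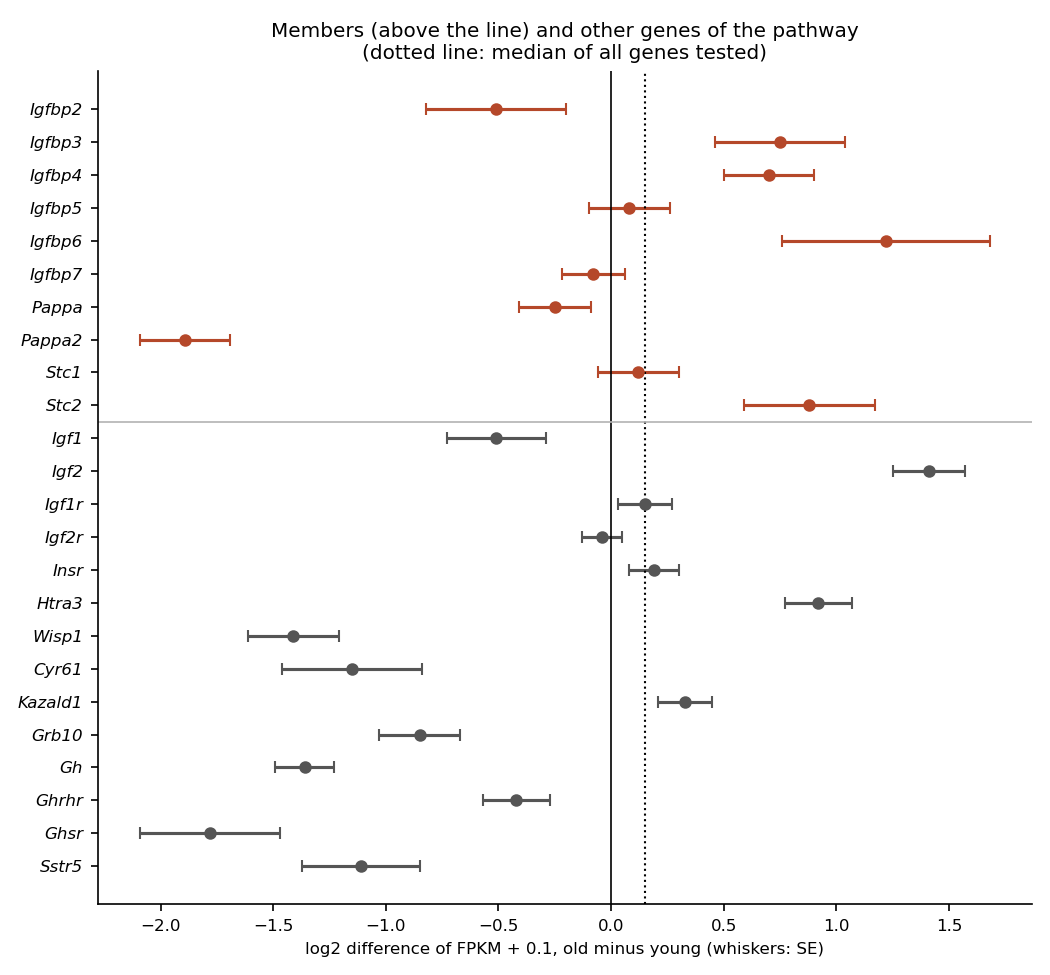
Log2 differences of FPKM + 0.1, old minus young, with their SE, for the 10 members above the grey line and 14 other genes of the pathway below it; the dotted line marks the median of all genes tested, 0.15. Pappa2, at -1.89, lies far to the left of the other 9 members, which run from -0.51 to 1.22.

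**Figure D4:**
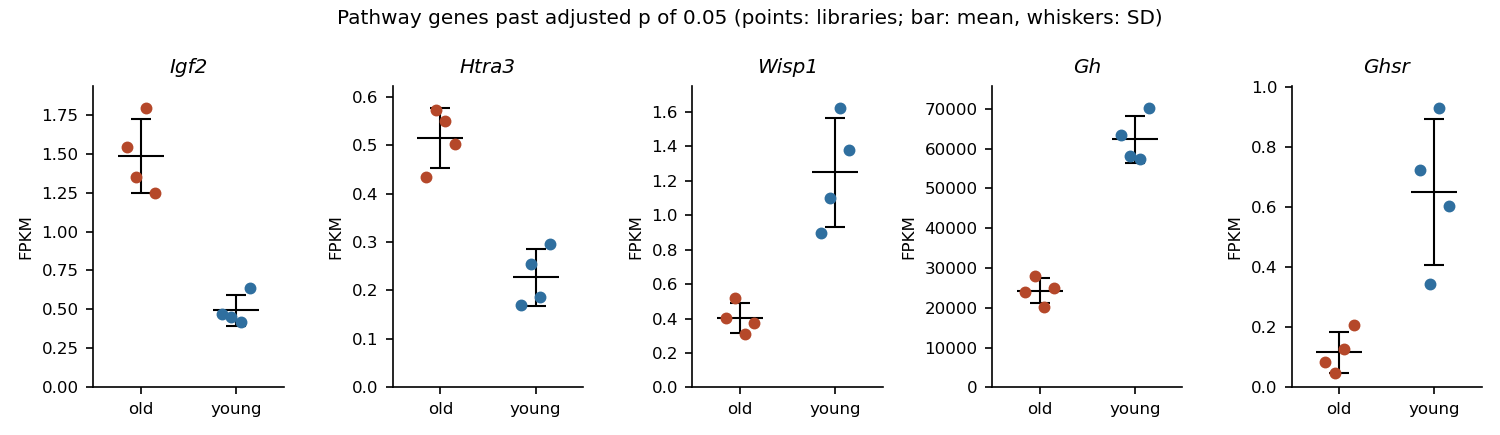
FPKM of the 5 pathway genes past an adjusted p of 0.05 (one panel each, linear axis from 0), old libraries left and young libraries right; points are libraries, the bar is the mean and the whiskers the SD. Old libraries lie wholly above young ones for Igf2 and Htra3 and wholly below them for Wisp1, Gh and Ghsr.

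Genes whose levels over the 8 libraries were most like those of Pappa2 were found by the root mean square difference of log2(FPKM + 0.1), each gene centred on its own mean, among the 23498 genes tested. The nearest 5, predicted genes left out, were Cbln4 (0.266 log2 units), Col1a1 (0.269), Egr3 (0.281), Scd1 (0.335) and Col3a1 (0.337). Cbln4 encodes a secreted cerebellin, and Egr3 an immediate early transcription factor. Col1a1 and Col3a1 encode fibrillar collagens of fibroblasts, and Scd1 a fatty acid desaturase. By construction all 5 were lower in old pituitary. Col1a1 averaged 1.04 ± 0.180 FPKM in old libraries and 3.24 ± 0.536 FPKM in young ones, and Col3a1 averaged 0.784 ± 0.205 FPKM in old libraries and 2.55 ± 0.474 FPKM in young ones. Cbln4 averaged 0.12 ± 0.0742 FPKM in old libraries and 0.662 ± 0.235 FPKM in young ones. Egr3 averaged 0.374 ± 0.197 FPKM in old libraries and 1.66 ± 0.181 FPKM in young ones, and Scd1 averaged 0.961 ± 0.205 FPKM in old libraries and 3.37 ± 0.897 FPKM in young ones.

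**Figure D5:**
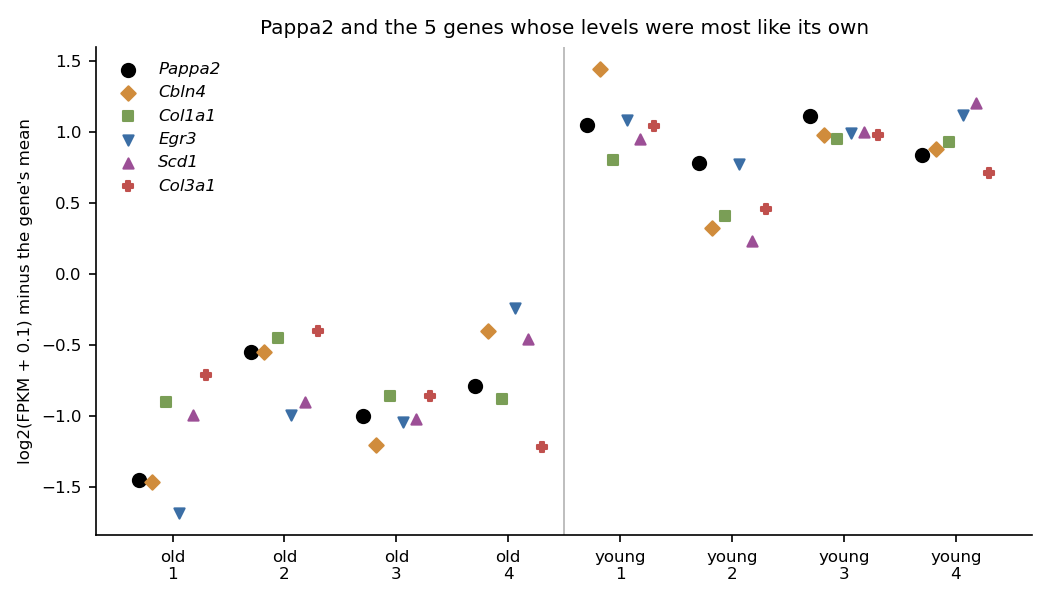
Log2(FPKM + 0.1) minus each gene's own mean for Pappa2 and the 5 genes most like it, in 4 old libraries left of the grey line and 4 young libraries right of it. All 6 genes lie below their mean in every old library and above it in every young one, and Pappa2 runs from -1.45 to -0.55 in old libraries and from 0.78 to 1.11 in young ones.

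Igfbp1, the acute liver-type binding protein, lies next to Igfbp3 on chromosome 11 but is not among the members and was too low to be tested. It was seen in every old library and in none of the young ones, at 0.0407, 0.0355, 0.0681 and 0.3 FPKM in the old libraries and listed at 0 in the 4 young ones. These values are 1, 1, 2 and 8 fragments. The library with 8 is old replicate 4, the one with the most Rax, Nkx2-1 and Scn7a of the posterior lobe list, and the part of that tissue in the value was not tested.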

How the data were processed

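Whole pituitary mRNA of old and young mice was sequenced in 4 libraries per age. By the methods text and the processing notes of the submitters, reads were mapped to GRCm38 with STAR (2.6.1a) and given to genes with featureCounts. The authors then deposited FPKM values from edgeR (3.28.1), 1 list of 49585 rows per library. Strand setting and Ensembl release: not given in the sources used here. Ages were compared with limma 3.58.1 (R 4.3.3), without trend, on log2(FPKM + 0.1) in the 23498 genes averaging 0.1 FPKM or more, with Benjamini-Hochberg adjustment over all of them and a threshold of 0.05. Differences are old minus young on that scale, which understates changes of low genes. Fragments were recovered from the FPKM steps and GENCODE M21 exon lengths, and 90.3 to 91.4% of low values came out whole within 0.01. The fit was tested on simulated data. Named genes are every member, of each pathway list up to 4 with the smallest adjusted p and the 2 with the highest level, and the 5 most like Pappa2. Members and lists were chosen with earlier results of these data known. Alternatives were another pseudocount, filter, scaling or variance model, a replicate block and leaving out each library in turn. The RefSeq promoter table held 8 of the 10 members.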

Additional observations from a re-analysis of the deposited data

Results flagged for a closer look

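Igfbp6 in old replicate 2 stood at 5.06 FPKM, far above the other 3 old libraries at 1.12 to 1.65 FPKM. Its gap to the next library was 0.867 of the group's whole range. It rests on 104 fragments, against 21 to 32 in the other old libraries. Of the 20 groups of 4 libraries examined, 1 stood out in this way, and chance alone gives about 1 in 20. No explanation was tested.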

How the results depend on the processing

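Over all genes, 436 were called higher in old pituitary and 111 lower. The count of higher genes was 689 with a pseudocount of 1, 263 with no filter on low values, 796 among genes averaging 1 FPKM or more and 705 with a mean-variance trend. It was 206, with 217 lower, under median-of-ratios scaling, and 212, with 189 lower, when hormone and ribosomal repeat genes did not count toward the library size. With voom and TMM on fragments 698 genes were lower. Leaving out 1 library gave 64 to 327 higher and 21 to 163 lower. Of the 9 members other than Pappa2, 0 were called under every alternative, except that voom called 1 higher. Of the pathway genes, the 2 higher became 0 at a mean of at least 1 FPKM, where Igf2 and Htra3 were filtered out, 1 with the trend, and 1 to 2 with a library left out. The 3 lower became 5 with a pseudocount of 1, 5 with the trend, 10 with voom, and 1 to 4 with a library left out. The log2 difference of Igfbp5 was -0.07 under median-of-ratios scaling, -0.05 without hormone and ribosomal repeat genes, -0.06 with voom and -0.01 to 0.20 with 1 library left out. The cause of these shifts was not tested.

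Old and young libraries share replicate numbers, but deviations of same-numbered libraries correlated at -0.088 to 0.057, so the numbers do not pair them. The replicate block left 4 genes higher and 0 lower over all genes, and 0 higher and 0 lower among the pathway genes. Among the members Stc1 rests on the fewest fragments.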
